A study of Rattus norvegicus with 16 samples.

Results

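The cathepsins are lysosomal proteases, and 10 of their genes (Ctsa, Ctsb, Ctsc, Ctsd, Ctsh, Ctsk, Ctsl, Ctss, Ctsw and Ctsz) were followed by symbol among the 21021 genes listed for rat dorsal root ganglia (DRG), the clusters of sensory neuron cell bodies beside the spinal cord. All 10 were found and passed the filter on low values (1 FPKM in 3 samples), but Ctsw, under 1 FPKM in all sham and day 1 samples, passed only through the day 7 and day 14 samples where it is high. The ganglia came from adult female Sprague-Dawley rats, and the ipsilateral L3–L5 DRGs of 1 animal made 1 RNA-seq sample. In the tumor cell implantation (TCI) groups, Walker-256 mammary gland carcinoma cells were placed in the cavity of the left tibia, and ganglia were taken on day 1, 7 or 14. The sham rats received PBS according to the sample labels and boiled tumor cells according to the study's methods. Sham ganglia were taken on day 14. Each of the 4 groups had 4 samples. Time since surgery and the presence of live tumor cells cannot be told apart for days 1 and 7, because no sham sample was taken on those days. TCI day 1 replicate 2 and TCI day 7 replicate 3 were left out by the study, and their values are given apart from the others. Fold changes cover 14 samples (4 sham, 3 of day 1, 3 of day 7, 4 of day 14).

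Most cathepsins are made as inactive precursors, travel to the lysosome and are activated there by acid and by other proteases. Ctsb, Ctsl, Ctss, Ctsk, Ctsc, Ctsh, Ctsz and Ctsw encode cysteine proteases of the papain type, Ctsd encodes an aspartic protease and Ctsa a serine carboxypeptidase. Most cells make cathepsins B, D and L, while cathepsins S, K and W are known mainly from antigen-presenting cells, bone-resorbing cells and cytotoxic lymphocytes. In pain research cathepsin S is known as a protease that microglia and macrophages release and that cuts the chemokine fractalkine (Cx3cl1) from neurons.

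The promoters of Ctss and Ctsd are shown because these genes stand at opposite ends of the results, Ctss with the largest rise among the readily detected members and Ctsd with the smallest change on day 7. Both are the 250 bases before the RefSeq gene start in assembly GRCr8, 5′ to 3′ on the strand of the gene. In the Ctss promoter (chr2:185775146-185775395, + strand) the capitals mark GAAA repeated after a gap of 2 bases, a pair of the kind interferon regulatory factors bind, 36 to 27 bases before the start, and a PU.1 core (GAGGAAG, here on the other strand), 16 to 10 bases before it. In the Ctsd promoter (chr1:206968822-206969071, − strand) the capitals mark TCACGTG, the core of the element bound by TFEB in lysosomal genes, at bases 157 to 151 on the other strand and at bases 11 to 4 on both strands, where the matches overlap.
Ctss: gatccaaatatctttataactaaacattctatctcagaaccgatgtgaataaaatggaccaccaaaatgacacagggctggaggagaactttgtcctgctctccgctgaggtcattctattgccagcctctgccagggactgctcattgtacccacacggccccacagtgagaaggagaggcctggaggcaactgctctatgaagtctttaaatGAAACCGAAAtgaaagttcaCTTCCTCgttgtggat
Ctsd: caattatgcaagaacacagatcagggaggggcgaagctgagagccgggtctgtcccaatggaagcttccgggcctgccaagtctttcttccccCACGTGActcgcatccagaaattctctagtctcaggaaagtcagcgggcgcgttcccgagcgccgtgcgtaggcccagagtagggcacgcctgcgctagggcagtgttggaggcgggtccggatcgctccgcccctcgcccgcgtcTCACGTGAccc
Both strands were searched in the 8 members with a promoter in the table (Ctsb and Ctsw had none) and in all 33469 promoters at the same length. The GAAA pair stood in Ctss alone of the 8 and in 3.41% of all promoters, and TCACGTG in Ctsd alone of the 8 and in 2.79% of all. GAGGAAG stood in 5 of the 8 (Ctsc, Ctsh, Ctsk, Ctss and Ctsz) and in 10.2% of all, and the STAT palindrome TTCNNNGAA in 0 of the 8 and 7.67% of all. These matches describe letters only. Ctsk and Ctss are near neighbours in the RefSeq gene order, with 1 gene between them.

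Levels are given as FPKM, a fragment count corrected for transcript length and for the mapped total, which can be compared between genes. In sham ganglia the members spanned a wide range. Ctsb was the most abundant at 931 ± 31.0 FPKM (SD, n = 4), followed by Ctsd at 331 ± 9.31, Ctsl at 129 ± 1.08 and Ctsa at 102 ± 3.49. Ctsh (60.1 ± 6.10) and Ctsz (35.2 ± 2.41) came next. Ctsc (10.1 ± 0.759), Ctss (8.70 ± 3.12) and Ctsk (5.54 ± 0.986) were low, and the sample ranges of Ctsc and Ctss overlapped, as did those of Ctss and Ctsk. Ctsw, at 0.168 ± 0.0903 FPKM, was under 1 FPKM in every sham sample. Ctsb and Ctsd together made 78.3% ± 0.481 of the summed FPKM of the 10 genes.

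**Figure D1:**
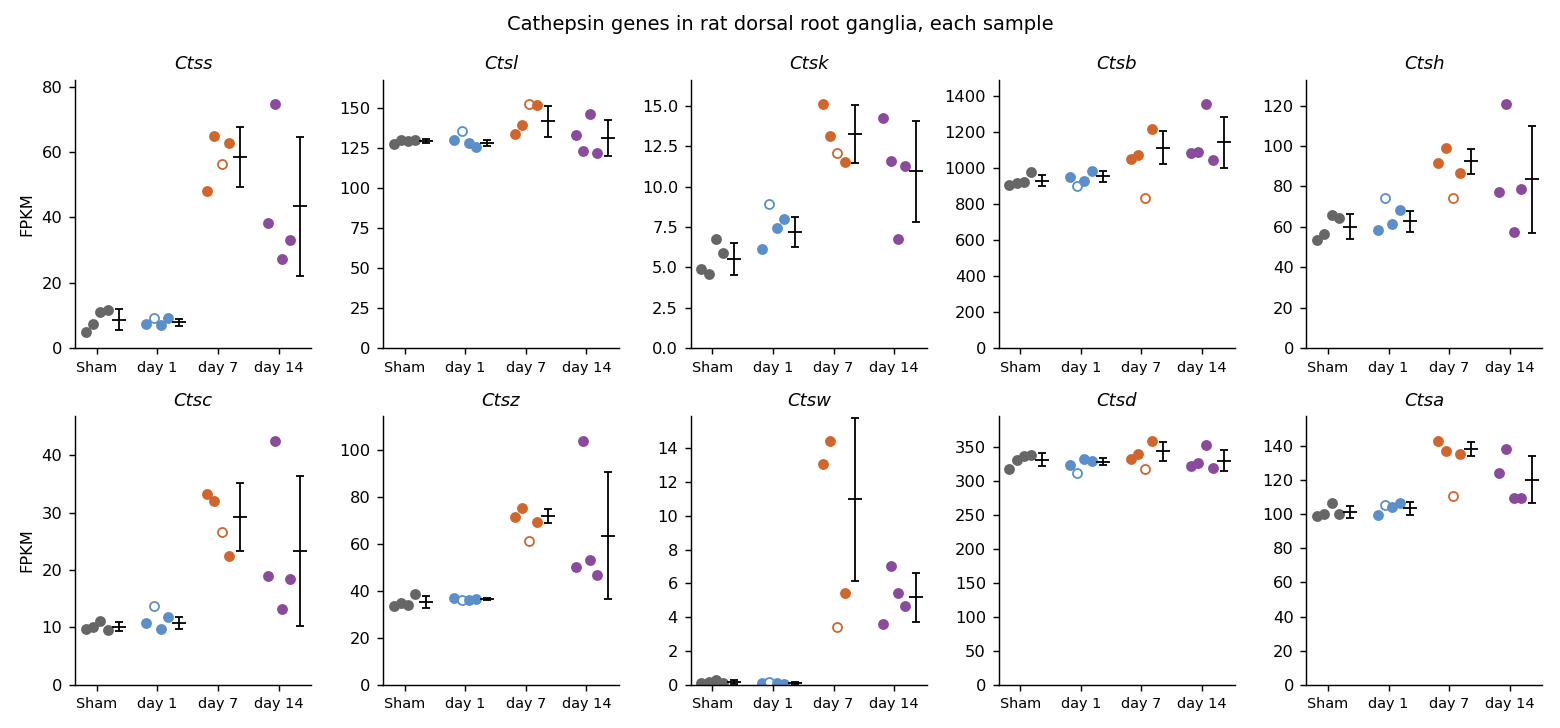
FPKM of the 10 cathepsin genes (y axis, from 0 in each panel) in every sample by group (x axis). Filled points are the 14 samples of the fits, open points the 2 samples left out by the study, and the black bars the mean ± SD of the filled points. Ctss on day 7 sat between 48.0 and 64.9 FPKM against at most 11.5 in sham, while Ctsd and Ctsl stayed near their sham levels.

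The 3 fitted day 7 samples held more cathepsin transcript than sham ganglia, 1931 to 2121 summed FPKM against 1556 to 1674, but the left-out day 7 sample, with 1649.8, lay inside the sham range. In RNA of whole ganglia, fewer or more cells of a type and less or more RNA per cell cannot be told apart. Changes are log2 fold changes of FPKM + 1, tested with limma over 14023 genes, and p-values were adjusted over all of them by the Benjamini-Hochberg method. On day 7, 7 of the 10 members (Ctsa, Ctsc, Ctsh, Ctsk, Ctss, Ctsw and Ctsz) were up-regulated at an adjusted p of at most 0.05 and 0 were down-regulated, where 14.5% of all genes were higher and 3.45% lower. Since Ctsw had to differ to pass the filter, the count among the other 9 is 6. Ctss and Ctsw also passed the cut-offs of the study, a log2 fold change of at least 1 and an adjusted p of at most 0.001, which 1.83% of all genes (257) passed upward. The study applied these limits with another test, DEGseq2. It reported more genes past them on each of days 1, 7 and 14 than limma on FPKM gave. Counts at these cut-offs are therefore not the calls of the study. The median log2 fold change of the 10 was 0.81, beside 0.04 over all genes. In 9 of the 10 every day 7 sample was above every sham sample, which held for 23.8% of all genes, and with all 16 samples it held for 8 of the 10. Centring each sample on its median, or quantile normalization, moved the all-gene median of this comparison to -0.07, and the all-gene calls went from 2028 higher and 484 lower to 1357 and 2057 with centring and to 1341 and 2320 with quantiles. Under these scalings 7 and 8 of the 10 cathepsins were called higher, and 0 lower.

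On day 1 there was 0 of 10 called in either direction, as for 0.0% of all genes, and the log2 fold changes lay between -0.08 (Ctsw) and 0.33 (Ctsk). At an unadjusted p under 0.05 the counts were 0 members and 734 genes. On day 14, 7 members were again up-regulated (Ctsa, Ctsb, Ctsc, Ctsk, Ctss, Ctsw and Ctsz) and 0 down-regulated, beside 11.9% and 3.21% of all genes, and Ctss and Ctsw passed the cut-offs of the study beside 0.642%. Among the 9 members other than Ctsw, 6 were higher. Centring or quantile normalization took the all-gene calls of day 14 from 1670 higher and 450 lower to 1144 and 1390 or to 1101 and 1547, and the cathepsins to 5 higher and 0 lower or to 6 higher and 1 lower (Ctsd). The median of the 10 was then 0.59, beside 0.03 over all genes, in the unscaled fit. In 6 of the 10 every day 14 sample was above every sham sample (13.8% of all genes). The comparisons of days 1, 7 and 14 share the same sham samples and are not independent of each other. Day 7 was also set against day 1, a comparison that shares the day 7 samples and is not independent of the others either. There 6 members were higher (Ctsa, Ctsc, Ctsk, Ctss, Ctsw and Ctsz) and 0 lower, beside 9.02% and 1.42% of all genes. Of these, 2 (Ctss and Ctsw) passed the cut-offs, beside 0.884%. In 9 of the 10 every day 7 sample was above every day 1 sample (23.8% of all genes). These counts include Ctsw, which passed the filter only through the later samples. With a mean of at least 5 FPKM required, which removes Ctsw, 5 of 9 were higher (6.12% of all genes). Ctss alone then passed the cut-offs (0.587% of all genes).

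**Figure D2:**
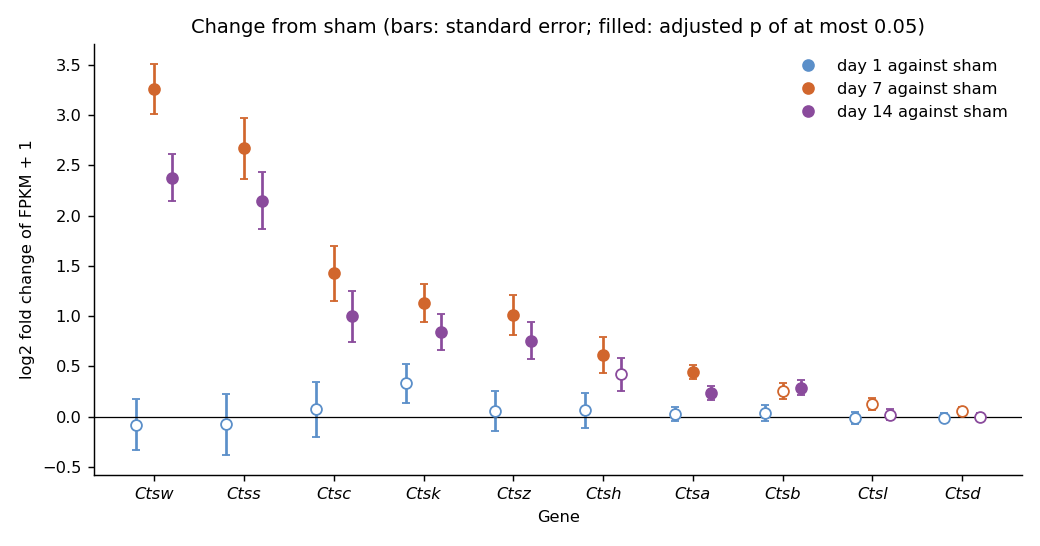
Log2 fold change of FPKM + 1 against sham (y axis) for each cathepsin gene (x axis) on day 1, 7 and 14, with standard error bars. Filled points have an adjusted p of at most 0.05. Ctsw and Ctss stand at 3.26 and 2.67 on day 7 and at 2.38 and 2.15 on day 14, and no day 1 point is filled.

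Ctss, which encodes the cathepsin that trims the invariant chain of MHC class II molecules and stays active at neutral pH, rose most among the members present in sham ganglia. Its FPKM in sham replicates 1 to 4 was 5.0, 7.25, 11.01 and 11.5. On day 1 it was 7.23, 7.21 and 9.09 in replicates 1, 3 and 4. On day 7 it reached 48.0, 64.9 and 62.9 in replicates 1, 2 and 4, and on day 14 it was 38.2, 74.7, 27.4 and 33.1. All samples of days 7 and 14 were above all samples of sham and day 1, and day 14 replicate 2 was the highest of all. The samples left out had 9.15 FPKM on day 1 and 56.5 on day 7, the first just above and the second within the range of the others. The log2 fold change against sham was -0.08 (SE 0.306) on day 1, 2.67 (SE 0.306, limma adjusted p = 0.000148) on day 7 and 2.15 (SE 0.283, adjusted p = 0.000691) on day 14, and group mean FPKM was 6.74 and 4.98 times that of sham on days 7 and 14. The order of levels was day 7, day 14, sham and day 1, in which days 7 and 14 (-0.52, 95% interval -1.18 to 0.14, adjusted p = 0.603) and sham and day 1 did not differ beyond their spread. Without sham replicate 2 the day 14 adjusted p was 0.0034, the highest over the 14 omissions. Among the omissions it was under 0.001 only without day 14 replicate 2 or 3, so its place there was borderline. The adjusted p was also above 0.001 with the 2 groups alone, without the limma trend, with no filter and with a replicate block. In all 24 alternative fits it stayed under 0.05.

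Ctsw encodes cathepsin W, a protease of cytotoxic T and natural killer (NK) cells, and went from almost no signal to a clear level. Sham replicates had 0.11, 0.15, 0.30 and 0.11 FPKM, and day 1 replicates 1, 3 and 4 had 0.13, 0.12 and 0.06, with 0.14 in the sample left out. On day 7 the values were 13.0, 14.4 and 5.44, with 3.41 in the sample left out, and on day 14 they were 3.58, 7.02, 5.44 and 4.67. The lowest day 7 or day 14 sample was thus far above the highest sham sample. The log2 fold change was 3.26 (SE 0.252, limma adjusted p = 1.79e-05) on day 7 and 2.38 (SE 0.233, adjusted p = 0.000139) on day 14. Since Ctsw passed the filter only through these later samples, its calls are given as a description. The added 1 FPKM compresses this gene, whose log2 ratio of group means was 6.03 on day 7 and 4.95 on day 14, values that rest on a few fragments in sham. Day 14 was 0.89 lower than day 7 on the log2 scale by point estimate, with an adjusted p of 0.248. Without day 7 replicate 4 the difference was -1.28 with an adjusted p of 0.0111. That replicate was the lowest of the 3 fitted samples of its day, so leaving it out had to widen the difference. Over all 16 samples, with the left-out day 7 sample at 3.41 FPKM, the difference was -0.55 (adjusted p = 0.447). Without day 7 replicate 2 the adjusted p was 0.606.

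Ctsk, the collagen-cutting cathepsin best known from osteoclasts and also made by fibroblasts, was up-regulated at a low level. It had 4.88, 4.61, 6.76 and 5.90 FPKM in sham and 6.14, 7.43 and 8.01 on day 1. On day 7 it had 15.1, 13.1 and 11.6, and on day 14 14.2, 11.6, 6.73 and 11.3. The left-out samples had 8.93 on day 1 and 12.1 on day 7. Every day 7 sample lay above every sham and day 1 sample, whereas day 14 replicate 3 lay within the sham range. The log2 fold change was 1.13 (SE 0.191, adjusted p = 0.00146) on day 7 and 0.84 (SE 0.177, adjusted p = 0.00771) on day 14. The day 1 value, 0.33, was the largest of the 10 members at that time but had an adjusted p of 0.956. Without day 14 replicate 3, the lowest of that day, the day 14 value was 1.04, with an adjusted p of 0.000518. Without sham replicate 2 the day 14 adjusted p was 0.028, the highest over the omissions, and over all alternative fits it was at most 0.0365. Against day 1, the day 7 call (0.80, adjusted p = 0.0247) was lost on leaving out day 1 replicate 1 or 3 or day 7 replicate 1 or 2, with adjusted p-values up to 0.0984.

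Among the cathepsins that trim the ends of proteins, Ctsc and Ctsz changed most. Ctsc encodes dipeptidyl peptidase I, which activates granzymes and neutrophil serine proteases. Its FPKM was 9.66, 10.1, 11.2 and 9.55 in sham and 10.8, 9.65 and 11.8 on day 1, then 33.3, 31.99 and 22.5 on day 7 and 19.0, 42.5, 13.3 and 18.4 on day 14. The left-out samples had 13.8 on day 1 and 26.6 on day 7. All samples of days 7 and 14 were above all sham samples. Its log2 fold change was 1.43 (SE 0.275, adjusted p = 0.00331) on day 7 and 1.00 (SE 0.254, adjusted p = 0.0193) on day 14. The day 14 call was lost without sham replicate 1 (adjusted p = 0.0512) and with the 2 groups alone (adjusted p = 0.0658). Without day 14 replicate 2 the value was 0.67 (adjusted p = 0.00907).

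Ctsz, a carboxypeptidase also called cathepsin X, had 33.4, 34.7, 33.9 and 38.7 FPKM in sham and 36.9, 36.1 and 36.4 on day 1. It had 71.5, 75.0 and 69.0 on day 7 and 50.3, 103.7, 53.2 and 46.5 on day 14. The left-out samples had 35.99 on day 1 and 61.3 on day 7, the latter below the other day 7 samples and above all sham samples. The 3 fitted day 7 samples were close together and had a mean 2.04 times that of sham, while on day 14 replicate 2 stood far above the other 3. The log2 fold change was 1.01 (SE 0.199, adjusted p = 0.00386) on day 7 and 0.76 (SE 0.185, adjusted p = 0.0159) on day 14, where without replicate 2 it was 0.50 (adjusted p = 0.000185). The day 14 call was lost with the 2 groups alone (adjusted p = 0.0699), and without sham replicate 1 the adjusted p was 0.0455.

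Ctsh, an aminopeptidase, rose less. It ranged from 53.5 to 66.0 FPKM in sham and from 58.3 to 68.1 on day 1, then from 86.6 to 99.1 (day 7) and from 57.3 to 120.7 (day 14). The left-out samples had 74.0 on day 1 and 74.2 on day 7. The day 7 samples did not overlap with sham, and the day 14 samples did. Its log2 fold change was 0.62 (SE 0.177, adjusted p = 0.0291) on day 7, a call lost on leaving out any of the 3 day 7 samples or sham replicate 1 or 2 (adjusted p up to 0.0983). On day 14 it was 0.42 (adjusted p = 0.104), and 0.58 (adjusted p = 0.0123) without day 14 replicate 3.

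Ctsa encodes the serine carboxypeptidase, or protective protein, that holds beta-galactosidase and neuraminidase in a stable complex. It ranged from 98.9 to 106.7 FPKM in sham and 99.5 to 106.5 on day 1. Later it held 135.2 to 143.1 (day 7) and 109.3 to 138.1 (day 14). Sham and TCI did not overlap on either of the later days, and the left-out day 7 sample (110.7) was also above sham, while the left-out day 1 sample had 105.2. The log2 fold change was small but precise on day 7, at 0.44 (SE 0.0711, adjusted p = 0.00105). On day 14 it was 0.24 (SE 0.0658, adjusted p = 0.0293), and that call was lost on leaving out day 14 replicate 1 or 2 or sham replicate 1, 2 or 4 (adjusted p up to 0.0789), over all 16 samples (0.0925), with the 2 groups alone (0.0947), with quantile normalization (0.0768) and with centred samples (0.0744).

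Ctsb, the most abundant member, which cuts proteins both internally and from the end, had the largest difference in mean FPKM between sham and the later days. It had 905, 917, 925 and 976 FPKM in sham and 949, 926 and 985 on day 1. On day 7 it had 1049, 1073 and 1217, and on day 14 1082, 1089, 1355 and 1043. Every later sample in the fit was above every sham sample, but the left-out samples, at 900.5 FPKM on day 1 and 834 on day 7, were below all of them. The log2 fold change of 0.26 (SE 0.0834) on day 7 narrowly missed the threshold (adjusted p = 0.0507), and was 0.15 (adjusted p = 0.31) over all 16 samples. On day 14 the value was 0.29 (SE 0.0773, adjusted p = 0.0249), and it lost the call without sham replicate 1, 2 or 3 (adjusted p up to 0.0697), over all 16 samples (0.097), with the 2 groups alone (0.0724), with centred samples (0.125) and with no filter (0.0579).

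Ctsl and Ctsd, endoproteases of the cysteine and aspartic class, were not called at any time. Ctsl ranged from 127.6 to 129.9 FPKM in sham and from 133.5 to 151.8 on day 7, with a log2 fold change of 0.13 (95% interval -0.0029 to 0.26, adjusted p = 0.17). The left-out samples had 135.4 on day 1 and 152.3 on day 7. On day 14 Ctsl had 0.02 (95% interval -0.10 to 0.14). Ctsd ranged from 318.1 to 338.5 FPKM in sham, 332.8 to 359.3 in the day 7 group and 319.0 to 352.9 in the day 14 group, and the left-out samples had 311.3 (day 1) and 318.4 (day 7). Its log2 fold change was 0.05 on day 7 (95% interval -0.0448 to 0.15, adjusted p = 0.464) and -0.01 on day 14 (95% interval -0.10 to 0.09, adjusted p = 0.947). With quantile normalization Ctsd was lower on day 14 (-0.11, adjusted p = 0.0257).

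The unequal changes altered the makeup of the cathepsin transcripts. The summed FPKM of the 10 genes was 1613 ± 50.5 in sham and 1638 ± 36.5 on day 1, with 2013 ± 98.0 and 1953 ± 156 at the later times. Ctss went from 0.536% ± 0.179 of that sum in sham to 2.91% ± 0.391 on day 7 and 2.21% ± 1.02 on day 14. The share of Ctsd was 20.6% ± 0.279 in sham, then 17.1% ± 0.152 and 16.9% ± 0.805, and that of Ctsb was 57.7% ± 0.655 in sham, 55.2% ± 1.86 on day 7 and 58.4% ± 4.19 on day 14. In order of mean level Ctss was eighth in sham and, on day 7, seventh behind Ctsz.

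Between days 7 and 14, 0 of the 10 members were called in either direction at an adjusted p of at most 0.05, where 0.00713% of all genes were higher and 0.0927% lower. At the cut-offs of the study there were also 0, beside 0.0143% of all genes lower. At an unadjusted p under 0.05 there were 2 (Ctsa and Ctsw), beside 1396 of the 14023 genes. The median log2 fold change was -0.23, beside -0.02 over all genes. Day 14 was spread widely. Replicate 2 was the highest of that day for 6 members, replicate 3 for 3 (Ctsb, Ctsd and Ctsl) and replicate 1 for 1 (Ctsk). Without replicate 2, 1.28% of all genes were lower on day 14 than on day 7, and so were 3 members, Ctsa (-0.28, adjusted p = 0.0331), Ctsc (-0.75, adjusted p = 0.0327) and Ctsz (-0.52, adjusted p = 0.00166).

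Genes that mark some cell types, though not all of the listed types, were also higher on days 7 and 14. The summed FPKM of 15 macrophage and microglia genes was 79.1 to 144.9 in sham and 103.0 to 123.7 on day 1. It reached 1019 to 1361 on day 7 and between 580 and 1969 on day 14, where the highest sample was replicate 2. Of these 15 genes, 15 were higher on day 7 and 13 on day 14 (14 and 12 of 14 without Itgam, which passed the filter only through the later groups), and 0 were at 0 throughout a group. The shares of all genes higher were 14.5% and 11.9%. Ctss FPKM amounted to 6.32% to 7.96% of that sum in sham, against 4.35% to 6.17% (day 7) and 3.79% to 5.71% (day 14). Ctsz amounted to 24.2% to 42.2% of it in sham and to 5.51% to 6.77% on day 7. The part of these cells in the cathepsin changes was not tested.

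The 15 T and NK cell genes summed to 6.21 to 9.45 FPKM in sham and 6.33 to 8.87 on day 1, against 58.1 to 130.7 (day 7) and 40.1 to 145.4 (day 14). All 13 that could be tested were higher on day 7 and 12 on day 14, but 12 of the 13 were under 1 FPKM in all sham and day 1 samples and passed the filter only through the later groups. Cd8b was at 0 in every sham sample, and Cd3d and Cd5 at 0 in every day 1 sample of the fit. Ctsw FPKM was 1.22% to 3.17% of the sum in sham, against 9.36% to 14.2% (day 7) and 4.83% to 13.6% (day 14). The share of T and NK cells in the Ctsw change was not tested.

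For Ctsk, markers of osteoclasts and fibroblasts were set beside it. The 6 listed osteoclast genes in the tables summed to 7.29 to 8.05 FPKM in sham, against 6.98 to 10.3 (day 7) and 3.84 to 8.01 (day 14), and Dcstamp was at 0 in all samples of sham and of day 1 in the fit. Of the 2 that could be tested, 0 were called on day 7, and on day 14 Acp5 was higher (0.67, adjusted p = 0.0435) and Itgb3 lower (-0.77, adjusted p = 0.0133), while with quantile normalization 0 were higher and 1 lower on day 14. The 7 fibroblast genes, among them collagens, summed to 415 to 593 in sham and 626 to 812 on day 1, against 978 to 1229 (day 7) and 339 to 967 (day 14). Of the 7, 4 were higher on day 7 and 2 on day 14, beside 14.5% and 11.9% of all genes. Ctsk was 0.969% to 1.18% of the fibroblast sum in sham, against 1.12% to 1.23% (day 7) and 1.30% to 1.98% (day 14). Day 14 replicate 3 had both the lowest fibroblast sum and the lowest Ctsk of its group. Of 9 neuron genes, 4 were lower on day 7 and 3 on day 14, beside 3.45% and 3.21% of all genes. Over all 16 samples 5 and 0 were lower, beside 4.76% and 1% of all genes. With centred samples the counts were 6 and 4, beside 14.7% and 9.91%, and with quantile normalization 4 and 3, beside 16.5% and 11%. The neuron markers were abundant in every group.

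**Figure D3:**
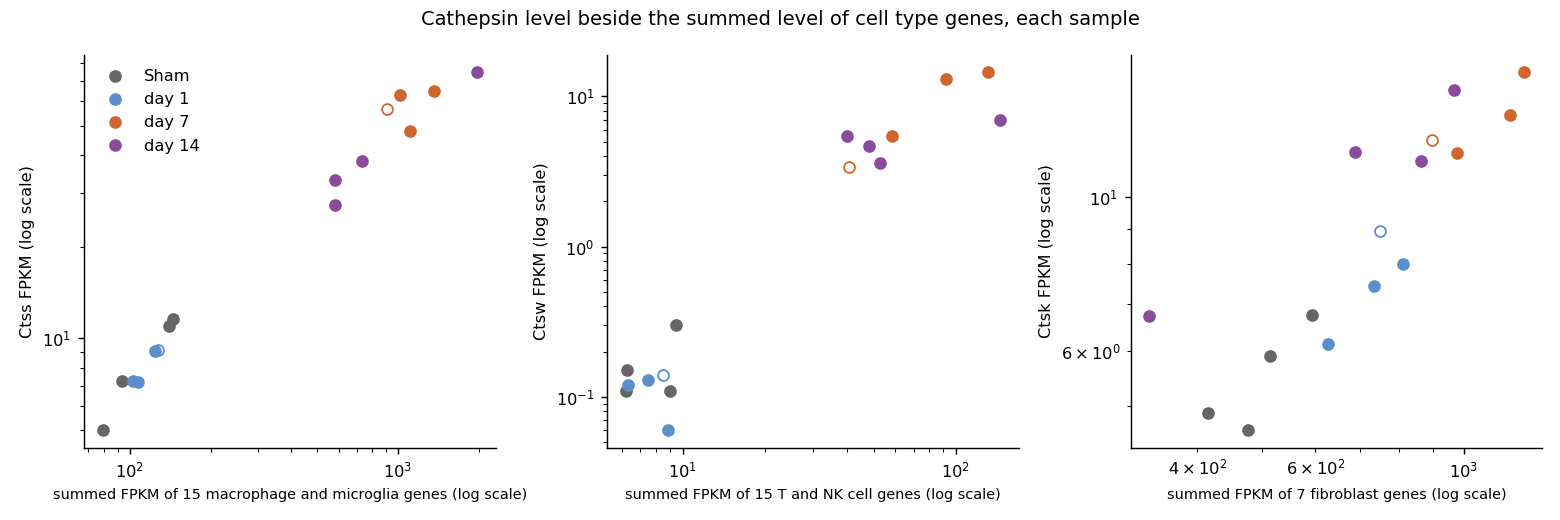
FPKM of Ctss, Ctsw and Ctsk (y axes) against the summed FPKM of 15 macrophage and microglia, 15 T and NK cell and 7 fibroblast genes (x axes), all on log scales, 1 point per sample, with the 2 left-out samples open. Sham and day 1 points lie at the low end in the Ctss and Ctsw panels, and day 14 replicate 2 has the highest macrophage sum, 1969 FPKM.

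Skeletal muscle genes marked samples that stood apart. Their 10 genes summed to 9.36 to 21.0 FPKM in 14 of the 16 samples, to 522.5 in sham replicate 4 and to 21782 in the left-out day 7 replicate 3. Without sham replicate 4 the day 7 log2 fold changes were 2.81 for Ctss (adjusted p = 0.000309), 3.24 for Ctsw (7.68e-05) and 1.16 for Ctsk (0.00379). Red blood cell genes summed to 69.4 to 140.4 FPKM in sham and 102.5 to 390.3 on day 1, against 25.4 to 58.1 (day 7) and 126.6 to 227.9 (day 14). The other marker lists (neutrophil, Schwann cell, satellite glia, endothelium, epithelial tumor cell) had summed ranges on day 7 of 5.30 to 20.1, 7018 to 8692, 235.2 to 242.1, 51.8 to 70.2 and 63.0 to 76.3 FPKM, against 0.81 to 1.21, 8549 to 11411, 215.7 to 233.9, 43.5 to 50.3 and 72.0 to 86.0 in sham. The neutrophil genes Mpo and Elane were at 0 in all sham samples.

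The genes whose levels were most like those of Ctss over the 14 samples were C1qb (Pearson r = 0.996), C1qa (0.995), C1qc (0.992), Lyz2 (0.990) and Ms4a7 (0.988), of which the first 4 are in the macrophage list. For Ctsw they were Lilrb4 (0.987), Cd8a (0.986), Eif3e (0.985), Acap1 (0.978) and Cxcr3 (0.978). For Ctsk they were F3 (0.967), Vim (0.961), Fn1 (0.959), Fcna (0.959) and Scara5 (0.959). These values describe the same 14 samples, whose group differences they share. Among the members, Ctsc and Ctsz (0.956), Ctsa and Ctsc (0.951) and Ctsc and Ctsh (0.951) were most alike, and Ctsd was closest to Ctsl (0.855).

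The other cathepsins in the tables were few. Of 12 listed, 8 were present and 3 tested. Ctso, a little-studied cysteine cathepsin, was 2.77 ± 0.0263 FPKM in sham and 4.93 ± 0.536 on day 7 (log2 fold change 0.65, adjusted p = 0.00102). Ctse, an aspartic protease of immune and epithelial cells, went from 0.283 ± 0.102 to 1.5 ± 0.618 FPKM (0.94, adjusted p = 0.0221), and Ctsf had 0.20 (adjusted p = 0.1). Ctse was under 1 FPKM in all sham and day 1 samples and passed the filter only through the later samples, so its call is given as a description. On day 14, 2 of the 3 were higher, and without Ctse 1 of 2 was higher on day 7 and on day 14. With quantile normalization 1 of the 3 was higher on day 7.

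Inhibitors that hold proteases in check changed in part. Of 20 cystatins and other inhibitors, 11 were tested, and 4 were higher on day 7 and 3 on day 14, with 0 lower. Of all genes, 14.5% and 11.9% were higher on these days. Without Cst7, for the reason given below, 3 of 10 were higher on day 7, Slpi among them, and 2 on day 14. The median was 0.21 on day 7. Slpi, an inhibitor of neutrophil elastase, had 0.523 ± 0.904 FPKM in sham, with 2 samples listed at 0 and the highest at 1.87, and 13.3 ± 2.80 on day 7 (3.37, adjusted p = 0.000675), but 1.64 ± 2.21 on day 14 (0.63, adjusted p = 0.395). Sham and day 1 alone (medians 0.11 and 0.17 FPKM) would not have passed Slpi through the filter, so its call is a description too. Serping1, the C1 inhibitor of the complement system, was 2.61 higher on day 7 (adjusted p = 0.000115). Cst7, or cystatin F, the inhibitor of cathepsin C in immune cells, went from 0.10 ± 0.0424 to 3.86 ± 1.53 FPKM on day 7 (2.09, adjusted p = 0.00123), and it too passed the filter only through the later samples. Cst3, or cystatin C, the main secreted cystatin, was at 1339 ± 139 FPKM in sham, above Ctsb, and at 1732 ± 189 on day 7 (0.37, adjusted p = 0.0108). Serpinb6 was the lowest of the list at -0.01 (adjusted p = 0.975).

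Other lysosomal genes were counted in the same way. Of 40 tested lysosomal hydrolases and their activators, 15 were higher on day 7 and 11 on day 14, with 0 lower, and their medians were 0.23 and 0.13. Of all genes, 14.5% and 11.9% were higher on these days and 3.45% and 3.21% lower. Rnaset2, a lysosomal ribonuclease, led at 1.04 (adjusted p = 0.000496), followed by the ganglioside activator Gm2a at 0.87 (0.00642) and Scpep1 at 0.83 (0.00671), and the iduronate sulfatase gene Ids was at -0.20 (0.0952). Lgmn, which encodes a protease that processes cathepsin precursors, had 0.12 (adjusted p = 0.115). With centred samples the counts were 11 higher and 4 lower on day 7 and 7 and 5 on day 14, and with quantile normalization 13 and 1, then 6 and 1. Of all genes, centring gave 9.68% higher and 14.7% lower on day 7 and 8.16% and 9.91% on day 14. Quantile normalization gave 9.56% and 16.5%, then 7.85% and 11%.

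Of 28 tested lysosomal membrane and sorting genes, 9 were higher on day 7 and 5 on day 14, with 0 lower, beside 14.5% and 11.9% of all genes higher. The day 7 median of 0.04 was that of all genes. With centred samples 5 were higher and 4 lower on each of these days, and with quantile normalization 6 and 3 on day 7 and 5 and 5 on day 14. The shares of all genes under these scalings are those given above for the hydrolases. The macrophage gene Cd68 (3.01, adjusted p = 0.000135), the leukocyte gene Laptm5 (1.53, 0.000397) and Grn, the progranulin gene (0.94, 0.0136), had the largest values. M6pr, the cation-dependent mannose 6-phosphate receptor that sorts enzymes to lysosomes, had the smallest (-0.31, adjusted p = 0.803).

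Partners and substrates of cathepsin S were examined by name. Of 10 listed, 8 were tested, and 4 were higher on day 7 and on day 14, beside 14.5% and 11.9% of all genes. Cd74, the invariant chain that cathepsin S trims, went from 44.9 ± 18.8 FPKM in sham to 450 ± 155 on day 7 (3.33, adjusted p = 0.000135) and 693 ± 367 on day 14 (3.88, adjusted p = 8.43e-05). Ifi30, a lysosomal thiol reductase of antigen processing, went from 7.39 ± 0.512 to 31.6 ± 9.55 on day 7 (1.92, adjusted p = 0.000285). Cx3cr1, the fractalkine receptor of macrophages and microglia, was 1.43 higher on day 7 (adjusted p = 0.00632) and 1.03 higher on day 14 (adjusted p = 0.0284). Its ligand gene Cx3cl1 had 2.96 ± 0.757 FPKM in sham and 5.21 ± 1.32 on day 7, with 0.65 (adjusted p = 0.0758), and was not called. P2rx7, the ATP-gated channel known to trigger cathepsin S release from microglia, had 0.14 on day 7 (adjusted p = 0.485), and Hsp90b1 had the smallest value at 0.03 (adjusted p = 0.817). With centred samples 3 were higher and 1 lower on day 14, beside 8.16% and 9.91% of all genes. Cd68 and Cx3cr1 are also in the macrophage list.

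**Figure D4:**
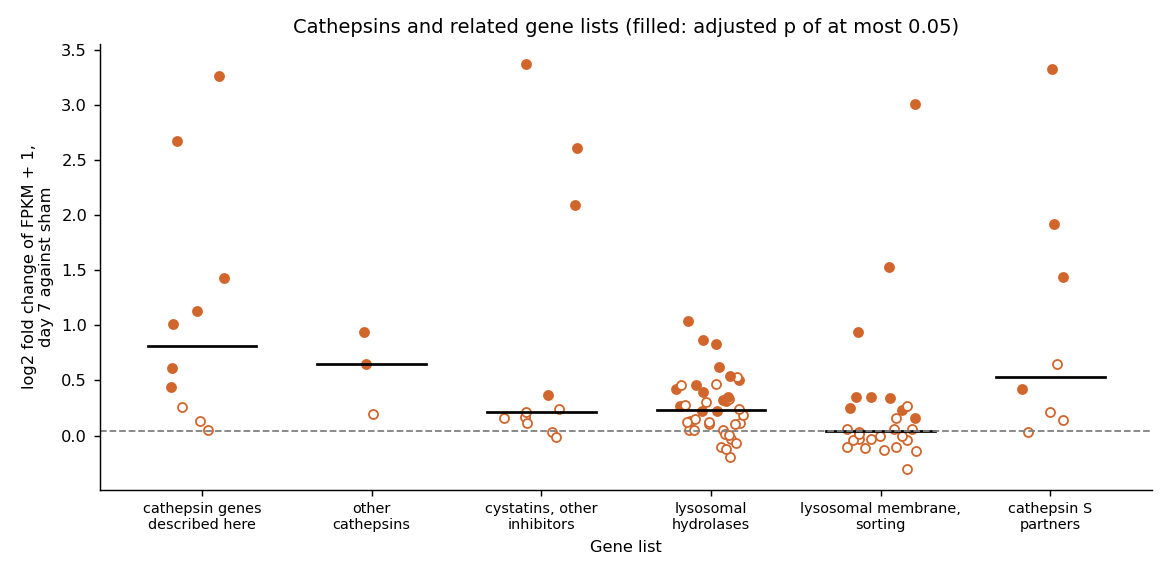
Log2 fold change of FPKM + 1 on day 7 against sham (y axis) for each tested gene of the 10 cathepsins and 5 related lists (x axis). Filled points have an adjusted p of at most 0.05, black lines are list medians and the dashed line is the median of all genes, 0.04. The cathepsin median is 0.81, and that of the lysosomal membrane and sorting genes lies on the dashed line.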

How the data were processed

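After filtering out poor, adaptor-bearing and ambiguous reads, the authors aligned with HISAT and Bowtie2 and quantified genes by RSEM. They deposited FPKM, written to 2 decimals, in a separate table for each sample. The submitters' processing notes name CASAVA 1.4 and Bowtie2, and the genome build and annotation are not given in the sources used here. The methods name a BGISEQ-500 sequencer and the labels an Illumina library protocol. The deposited FPKM hold no fragment totals, so the depth is unknown and counting error could not be given. From the steps of very low values the relative depth was 0.925 to 1.07 times the median sample.

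Groups came from the sample labels. The values were analysed as log2(FPKM + 1) with limma 3.58.1 in R 4.3.3 (lmFit, eBayes with an intensity trend), keeping genes that reached 1 FPKM in 3 or more samples, with the 14 samples of all 4 groups in 1 fit and Benjamini-Hochberg adjustment over all 14023 genes. The written design also provided for a test on counts, which FPKM do not allow. The procedure was tested on simulated data. Each sample is 1 animal. The p-values weigh a group difference against the spread between animals, estimated over all 4 groups and moderated by limma with the intensity trend. At most 2.78% of values above 0 were identical between any 2 samples. The 10 members, the related lists, the markers and the motifs were chosen with earlier results of these data known, so counts in them are descriptions. Named genes were all members, in each related list the 3 genes with the largest and the 1 with the smallest day 7 change, 7 genes linked to cathepsins S or C, and for Ctss, Ctsw and Ctsk the 5 most alike genes. All 10 members matched the RefSeq gene table by identifier. The other Cts genes Ctsm, Ctsql2, Cts7 and Cts8 were not analysed here. Tables were read with jsonlite 2.0.0 and pandas 2.3.3, and figures drawn with matplotlib 3.10.9. Alternatives were all 16 samples, the 2 groups alone, no trend, array weights, quantile or median scaling, other filters, a pseudocount of 0.1, a replicate block and each sample left out.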

Additional observations from a re-analysis of the deposited data

Results flagged for a closer look

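In 40 groups of 4 samples (10 genes in 4 groups, with all 16 samples), 2 held a sample far from the other 3 by Dixon's test, where chance gives about 1 in 20. Ctsb in TCI day 14 replicate 3 was 1355 FPKM, and the other 3 samples of that day lay between 1043 and 1089. Ctsz in TCI day 14 replicate 2 was 103.7 FPKM, with the other 3 between 46.5 and 53.2. The same replicate 2 had the highest macrophage and microglia sum of all samples (1969 FPKM), and its part in the Ctsz value was not tested.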

How the results depend on the processing

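On day 7 against sham, 5 cathepsins passed the cut-offs of the study in the fit of the 2 groups alone and with array weights, and 1 with a mean of at least 5 FPKM, which removes Ctsw, against 2 as reported. The shares of all genes past these cut-offs were 3.02%, 4.11% and 1.29%, against 1.83%. On day 14, 3 were higher at an adjusted p of at most 0.05 with the 2 groups alone, against 7, beside 6.82% and 11.9% of all genes. At the cut-offs of the study, 1 in place of 2 passed on day 14 with the 2 groups alone, without the trend, with no filter and with a mean of at least 5 FPKM, and 1 on day 7 against day 1 with that last filter. The cause was not tested except for the removal of Ctsw. Leaving out 1 sample at a time gave 6 to 8 higher members on day 7 (1 to 4 at the cut-offs), 4 to 8 on day 14 (1 to 3), 5 to 8 on day 7 against day 1 (1 to 3), and 0 on day 1 against sham and 0 higher on day 14 against day 7. The lowest day 14 count was without sham replicate 1. At the cut-offs, the day 7 count was 1 without day 7 replicate 2 and 4 without day 14 replicate 2, beside 0.373% and 3.38% of all genes. 0 calls changed direction. Of the single-gene values under the alternatives, 1190 kept their direction and side of the threshold, 29 lost and 21 gained a call, and 4, all log2 ratios of Ctsw means, moved by more than the spread. Unknown depth limits Ctsw most, whose sham values are all under 1 FPKM.

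The labels do not say whether replicate numbers tie samples across groups, and correlations from 3 or 4 samples per group cannot settle it. Same-numbered samples had correlations of their deviations between -0.0952 and 0.269 over 18 pairs (median 0.0026). With a replicate block, 1 member in place of 2 passed the cut-offs of the study on day 14 against sham and 1 in place of 2 on day 7 against day 1, where Ctsk also lost its call (adjusted p = 0.0883), while Ctsb gained one on day 7 against sham (adjusted p = 0.0473).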
